A study of Drosophila melanogaster with 3 samples.

Results

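The JAK/STAT pathway genes of adult *Drosophila* nephrocytes were examined as 9 genes named by symbol. They were the ligand genes *upd1*, *upd2* and *upd3*, the receptor genes *dome* and *et*, the kinase gene *hop*, the transcription factor gene *Stat92E* and the inhibitor genes *Socs36E* and *Ptp61F*. All 9 were found by their FlyBase identifier among the 17768 genes listed for each library. Nephrocytes, filtering cells that sit along the fly heart, were measured in 3 RNA sequencing libraries of 1 condition, so no treated or mutant group stood against the control. All libraries came from control females aged 4 days, which carried *Hand*-GFP together with *Klf15*-Gal4 and UAS-RFP over CyO, a balancer chromosome. They were reared at 25 °C on a normal diet with 6% sucrose, with 200 flies dissected per replicate. *Hand*-GFP marks heart and nephrocyte cells, and *Klf15*-Gal4, built on a *Klf15* promoter fragment, drives RFP in nephrocytes. Large cells positive for both colours were sorted by flow cytometry, so each library pools cells of many flies. The submitters give a yield of 100 to 200 nephrocytes, and whether this is per library is not stated.

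In flies, a secreted Upd cytokine binds the receptor Dome, which brings together copies of Hop, the only Janus kinase of the fly. Hop phosphorylates Stat92E, the only fly STAT, which then enters the nucleus and switches on target genes, among them *Socs36E*, whose product dampens the signal. The pathway is known for its roles in blood cell formation, renewal of the gut and the testis, and the response to injury and infection.

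Of the 9 genes, 7 were detected, meaning that they reached at least 1 TPM (RSEM's transcript level, corrected for transcript length and for the size of the library) in every library. The share of all listed genes that reached this threshold was 40.5%. *Stat92E* was the most abundant, at 160.1 ± 20.4 TPM (mean ± SD, n = 3 libraries), and ranked 801st of 17768 genes. *et*, *Ptp61F*, *dome*, *hop*, *upd3* and *Socs36E* followed at 48.9 to 8.32 TPM on average. *upd2* was close to the limit of detection, and no read was assigned to *upd1* in any library.

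**Figure D1:**
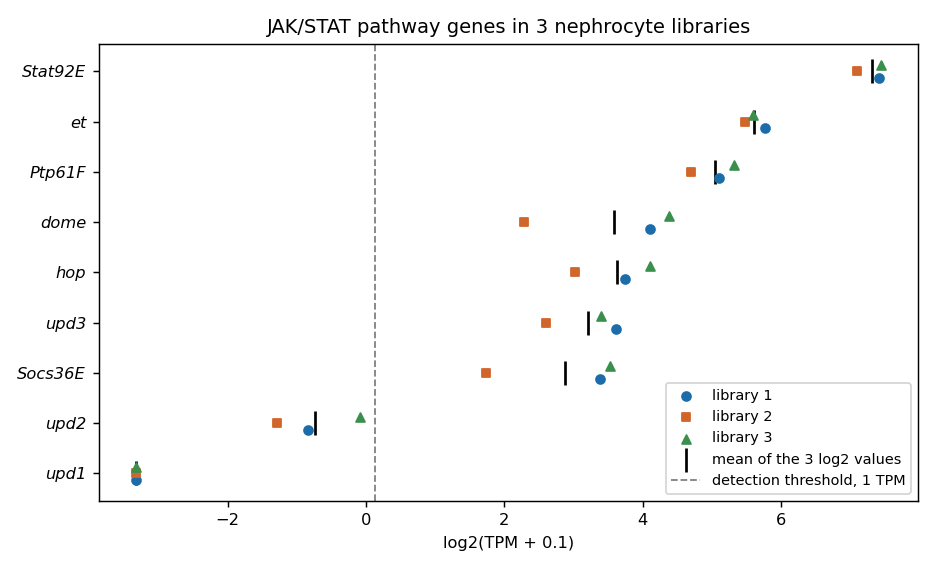
Level of each JAK/STAT pathway gene as log2(TPM + 0.1), 1 row per gene in the order of mean TPM, with 1 symbol per library and a bar at the mean of the 3 log2 values. *Stat92E* lies to the right of every other gene, 7 genes lie beyond the dashed line at 1 TPM in each library, and the symbols of *upd1* fall together at 0 TPM.

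Expected counts, the reads that RSEM assigns to a gene, summed to 8801238, 7808930 and 8797916 in libraries 1, 2 and 3. Each of the 27 expected counts of the 9 genes was a whole number within 0.005. All 9 nephrocyte markers were detected, with *Hand* at 4697 ± 459 TPM, *Klf15* at 153 ± 17.8 TPM and *sns*, the fly nephrin gene, at 122 ± 48.4 TPM (SD, n = 3). Lists of genes known from other cells were read too. The share of all listed genes that were detected, 40.5%, stands beside each count of detected markers. All 13 genes of the muscle and heart contractile list were detected, led by the actin gene *Act57B*, with summed levels of 8558, 3953 and 13410.2 TPM in libraries 1, 2 and 3. The list holds *Act57B* and *Act87E*, actin genes that the study also detected and silenced in nephrocytes. The part of other cells in the levels of the listed genes was not tested. Of 10 hemocyte markers 3 were detected, with summed levels of 564, 388 and 489 TPM in libraries 1, 2 and 3. They were *crq*, a scavenger receptor gene, at 352 ± 42.8 TPM, *srp*, a GATA factor gene, at 121 ± 56.9 TPM, and *He* at 6.66 ± 4.32 TPM (SD, n = 3). Of the 7 others, *NimC1* had 17, 11 and 11 counts in libraries 1, 2 and 3, *Pxn*, *Ppn* and *Hml* had at most 2 counts in a library, and *eater*, *Sr-CI* and *lz* had none. Of 10 fat body markers 2 were detected, *Obp99b* and *FASN1*, with list sums of 17.1, 21.0 and 315 TPM in libraries 1, 2 and 3. *Obp99b* alone was at 8.73, 12.8 and 299 TPM, while *Lsp1beta*, *Lsp2* and *Fbp1* had no count. Of 8 ovary markers only *grk* was detected, at 101 ± 11.5 TPM (SD, n = 3), and none of 6 neuron and glia markers was. In RNA from pooled cells, fewer cells of a type and less RNA per cell cannot be told apart. The number of reads sets a limit for counting error only, because the cDNA was amplified before sequencing.

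Among the ligands, *upd3* was the one that nephrocyte libraries contained in measurable amounts. *upd3* encodes a cytokine that blood cells and gut cells are known to release after stress or infection. Its level was 12.15, 5.99 and 10.4 TPM in libraries 1, 2 and 3 (9.51 ± 3.17 TPM, SD, n = 3), on 182, 89 and 155 expected counts. Library 2 was lowest, and *upd3* stayed above 5 TPM there. *upd3* made up 94.7 ± 1.95% of the TPM of the 3 ligand genes (SD, n = 3).

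*upd2*, which encodes a cytokine that the fat body releases according to feeding, was at 0.46, 0.31 and 0.84 TPM in libraries 1, 2 and 3 (0.54 ± 0.27 TPM, SD, n = 3). These levels rested on 6, 4 and 11 expected counts, with exact 95% Poisson intervals of 2.20 to 13.1, 1.09 to 10.2 and 5.49 to 19.7 counts. The 3 intervals overlap one another, and those of libraries 1 and 2 reach below 3 counts. *upd3* exceeded *upd2* by 26.4-fold, 19.3-fold and 12.4-fold in the 3 libraries. *upd1*, the remaining ligand gene, had 0 expected counts in each library. Taking 3 counts as the limit that a count of 0 allows (a one-sided limit, while the two-sided 95% interval ends at 3.69 counts), its level was below 0.171, 0.172 and 0.172 TPM in libraries 1, 2 and 3. With *upd1* set at this limit of 3 counts per library, the measured level of *upd3* was 71.2-fold, 34.8-fold and 60.6-fold that of *upd1*. The counting error of *upd3* is not part of these values.

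The 3 ligand genes lie close together on the X chromosome in the BDGP6.54 annotation. *upd2* (FBgn0030904) spans 18240654 to 18243284 on the minus strand, *upd3* (FBgn0053542) spans 18277233 to 18284596 on the plus strand, and *upd1* (FBgn0004956) spans 18305354 to 18309291 on the minus strand. The whole cluster covers 68638 bases, with 33948 bases between *upd2* and *upd3* and 20757 bases between *upd3* and *upd1*. These 3 neighbouring genes were thus read at a measurable level, near the limit and not at all in the same libraries.

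Both receptor genes were detected, and the short receptor was the more abundant in every library. Dome is the signalling receptor for the Upd cytokines. *et* (eye transformer, also called latran) encodes a related, shorter receptor that lacks the signalling tail and is known to restrain the pathway. *et* was at 54.1, 44.6 and 48.0 TPM in libraries 1, 2 and 3 (48.9 ± 4.84 TPM, SD, n = 3) and ranked 2058th by its mean. *dome* was at 17.1, 4.75 and 20.7 TPM (14.2 ± 8.36 TPM, SD, n = 3) and ranked 4393rd. The values of *et* and *dome* did not overlap, since the lowest value of *et* was above the highest of *dome*. *et* exceeded *dome* by 3.16-fold, 9.39-fold and 2.32-fold in libraries 1, 2 and 3. The log2 ratio on TPM + 0.1 was 2.02 ± 1.05 (SD, n = 3; exact p = 0.25, two-sided, from flipping the sign of each library's value; adjusted p = 0.295 among 13 pairs). With 3 libraries 0.25 is the smallest p this test can give. Without library 2 the log2 ratio was 1.43. In library 2 longer transcripts stood lower against libraries 1 and 3, as described below. This trend with length was -0.22 at *et* and -0.86 at *dome* (log2), and ratios between genes were not adjusted for it.

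*et* and *dome* are direct neighbours. *et* (FBgn0031055) spans 19672312 to 19675891 and *dome* (FBgn0043903) spans 19676061 to 19683518 on the minus strand of the X chromosome, 169 bases apart, with *et* downstream of *dome*. *dome* has 1 annotated transcript of 4875 bases, and *et* has 2 transcripts of 2368 and 2405 bases. Exons of *et* share 42 of their 2411 bases with *Zw*, which lies on the other strand. How the reads were assigned to strands is not given in the sources used here, and *et* had 720 to 881 expected counts against 23 to 52.3 for *Zw*.

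*Stat92E* carried many more transcripts than the kinase gene that activates its product. *Stat92E* was at 169.8, 136.7 and 173.9 TPM in libraries 1, 2 and 3, on 4624, 3687 and 4724 expected counts. *hop* was at 13.3, 8.03 and 17.0 TPM (12.8 ± 4.53 TPM, SD, n = 3), on 486, 290 and 618 counts. *Stat92E* exceeded *hop* by 12.7-fold, 17.0-fold and 10.2-fold, and the mean log2 ratio was 3.69 ± 0.37 (SD, n = 3; exact p = 0.25, adjusted p = 0.295). It exceeded *dome* by 9.91-fold, 28.8-fold and 8.41-fold, and the mean log2 ratio was 3.73 ± 0.95 (SD, n = 3; exact p = 0.25, adjusted p = 0.295). Both ratios were positive in 3 of 3 libraries and several times larger than their spread.

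*hop* and *dome*, the kinase and the receptor that holds it, were at similar levels. The ratio of *hop* to *dome* was 0.78, 1.69 and 0.82 in libraries 1, 2 and 3. The mean log2 ratio was 0.036 ± 0.62 (SD, n = 3; exact p = 1, adjusted p = 1), smaller than its spread, and without library 2 it was -0.32. *hop* (FBgn0004864) lies on the X chromosome from 11360930 to 11368098 and has 1 transcript of 5055 bases. *Stat92E* (FBgn0016917) spans 20535323 to 20552311 of chromosome 3R, with 11 annotated transcripts of 2917 to 4200 bases. Its mean transcript length as estimated by RSEM, which weights isoforms by their abundance, stayed between 3838 and 3848 bases in the 3 libraries.

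The 2 inhibitor genes differed in level. *Ptp61F* encodes a tyrosine phosphatase, the fly relative of mammalian PTP1B, that removes phosphate from Hop and Stat92E. It was at 34.3, 25.8 and 39.9 TPM in libraries 1, 2 and 3 (33.3 ± 7.11 TPM, SD, n = 3) and ranked 2744th. *Socs36E* encodes the suppressor of cytokine signalling that the pathway itself induces. It was at 10.4, 3.23 and 11.4 TPM (8.32 ± 4.44 TPM, SD, n = 3) and ranked 5375th. *Ptp61F* was above *Socs36E* in each library, with no overlap between their values.

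*Ptp61F* exceeded *hop* by 2.57-fold, 3.21-fold and 2.34-fold, and the mean log2 ratio was 1.42 ± 0.23 (SD, n = 3; exact p = 0.25, adjusted p = 0.295). Relative to *Stat92E*, *Ptp61F* stood at a nearly constant log2 ratio of -2.28 ± 0.14 (SD, n = 3; exact p = 0.25, adjusted p = 0.295). *Socs36E* stood at -4.43 ± 0.80 relative to *Stat92E* (SD, n = 3; exact p = 0.25, adjusted p = 0.295), with the lowest value, -5.36, in library 2. *Ptp61F* (FBgn0267487) covers 132765 bases of chromosome 3L, from 1342493 to 1475257, and has 5 transcripts of 1796 to 5167 bases. *Socs36E* (FBgn0041184) spans 18138675 to 18152417 of chromosome 2L, with 3 transcripts of 3334 to 3503 bases.

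**Figure D2:**
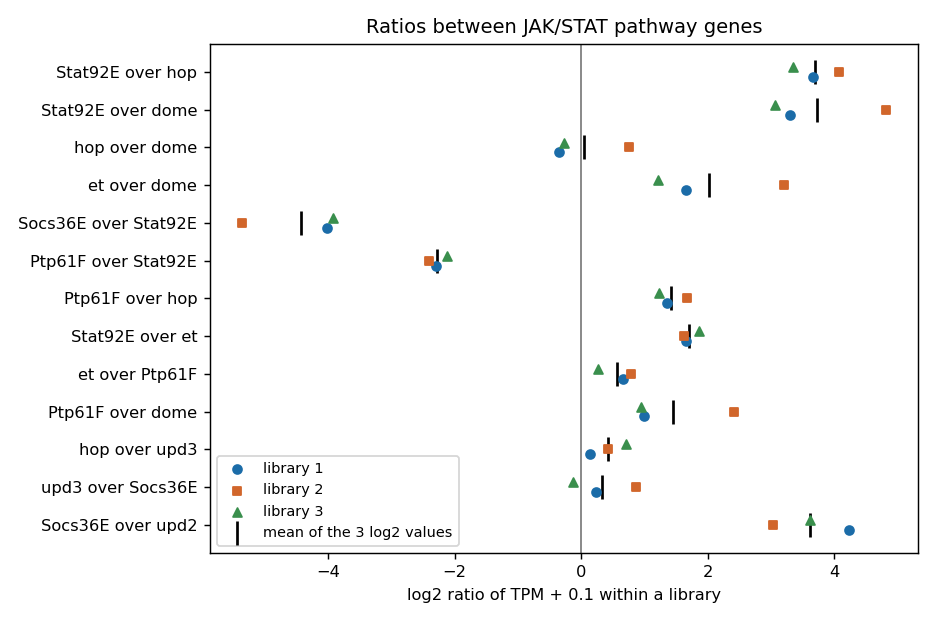
Log2 ratio of TPM + 0.1 between pairs of JAK/STAT pathway genes within each library, 1 symbol per library and a bar at the mean. Of the 13 pairs, 11 lie on 1 side of 0 in all 3 libraries, while *hop* over *dome* and *upd3* over *Socs36E* lie on both sides.

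The upper part of the order was the same in each library and the middle was not. *Stat92E*, *et* and *Ptp61F* were the top 3 of the 9 genes, in this order, in libraries 1, 2 and 3, and *upd2* and *upd1* ranked last. *dome* came next in libraries 1 and 3, but stood below *hop* and *upd3* in library 2. Among neighbours in the order of mean TPM, *Stat92E* exceeded *et* by a log2 ratio of 1.71 ± 0.13, *et* exceeded *Ptp61F* by 0.57 ± 0.27 and *Ptp61F* exceeded *dome* by 1.45 ± 0.83 (SD, n = 3 each). *hop* exceeded *upd3* by 0.42 ± 0.29, in 3 of 3 libraries. *upd3* and *Socs36E* differed by less than their spread, with a log2 ratio of 0.32 ± 0.51 (SD, n = 3; exact p = 0.5, adjusted p = 0.542) that was negative in library 3. *Socs36E* exceeded *upd2* by 3.62 ± 0.60, on few counts of *upd2*.

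Beside the transcription factors of other signalling pathways, *Stat92E* stood high. It took position 3 of 17 signal-dependent transcription factors by its mean, and position 3 in each library. Above it were *Rel*, the NF-kappaB factor of the Imd immune pathway, at 491 ± 97.4 TPM, and *Jra*, the fly Jun, at 284 ± 67.0 TPM (SD, n = 3). Next below was *kay*, the fly Fos, at 125 ± 51.5 TPM (SD, n = 3). *Stat92E* was below *Jra* in 3 of 3 libraries, by a log2 ratio of -0.81 ± 0.23 (SD, n = 3; exact p = 0.25, adjusted p = 0.375 over 6 such pairs). It was above *kay* in 3 of 3 libraries, by 0.45 ± 0.51 (SD, n = 3; exact p = 0.25, adjusted p = 0.375), with a ratio close to 1 in library 1, where the log2 value was 0.012, so this difference did not exceed its spread.

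The receptor genes took separate places. Among 18 signalling receptor genes, *et* took position 4 by mean TPM and 4, 3 and 4 in libraries 1, 2 and 3, and *dome* took position 9 by mean TPM and 9, 11 and 9. The highest were *tkv*, a BMP receptor gene, at 85.5 ± 7.73 TPM, *PGRP-LC*, the receptor gene of the Imd pathway, at 83.1 ± 7.70 TPM, and *Pvr*, a receptor tyrosine kinase gene, at 71.0 ± 36.2 TPM (SD, n = 3). *et* was above *Pvr* in library 2 only, with a log2 ratio over the libraries of -0.37 ± 0.84 (SD, n = 3; exact p = 0.5, adjusted p = 0.6). It was above *Tl*, the Toll receptor gene, in 3 of 3 libraries, by 0.40 ± 0.26 (SD, n = 3; exact p = 0.25, adjusted p = 0.375). *dome* was below *babo*, an activin receptor gene, in 3 of 3 libraries, by -0.73 ± 0.70 (SD, n = 3; exact p = 0.25, adjusted p = 0.375). It did not differ from *robo1*, a Slit receptor gene, beyond its spread, at 0.17 ± 0.57 (SD, n = 3; exact p = 0.75, adjusted p = 0.75).

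**Figure D3:**
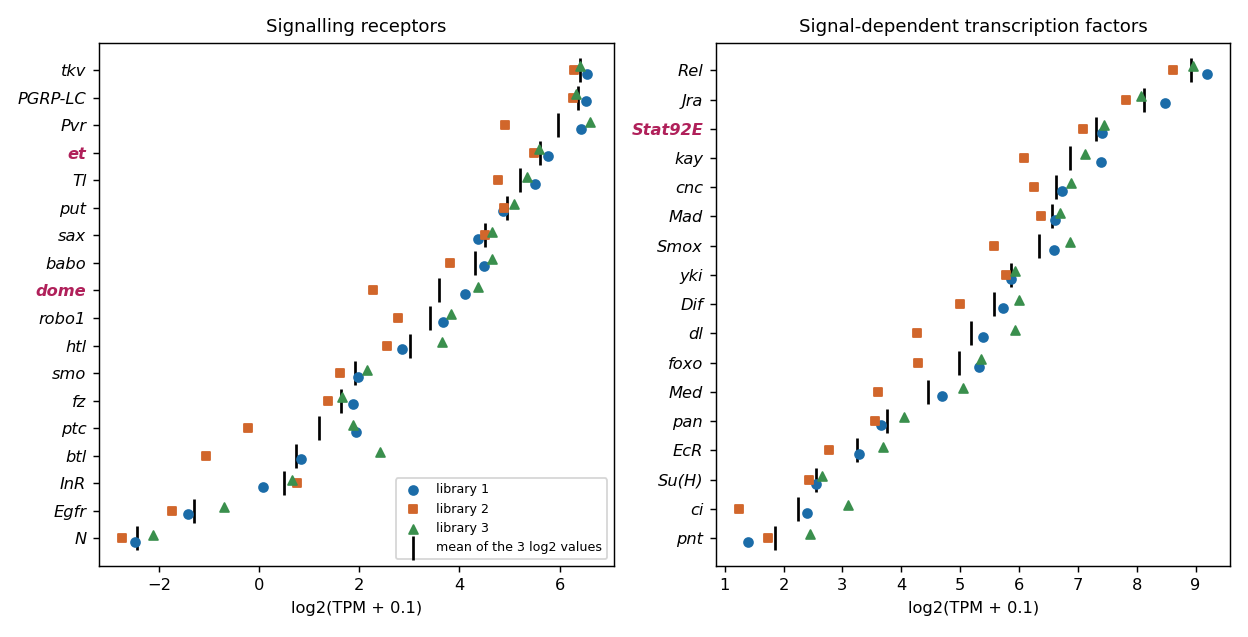
Levels as log2(TPM + 0.1) of 18 signalling receptor genes (left) and 17 signal-dependent transcription factor genes (right), with 1 symbol per library, a bar at the mean of the log2 values, and the JAK/STAT genes in bold colour. *et* and *dome* take positions 4 and 9 among the receptors, and *Stat92E* position 3 among the transcription factors.

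Of 18 further regulators of the pathway, 17 were detected, against 40.5% of all listed genes. Their median was 52.5 TPM, against 20.9 TPM for all detected genes. The highest was *Chc*, the clathrin heavy chain gene, which acts in receptor uptake and is used by every endocytic route, at 1074 ± 276 TPM (SD, n = 3). *Sumo*, the gene of the modifier that SUMO ligases attach, was at 247 ± 65.7 TPM, and *Stam*, an endosomal sorting gene, at 83.5 ± 15.8 TPM (SD, n = 3). Only *dlp*, a glypican gene, was not detected, at 0.15, 0.15 and 0.42 TPM in libraries 1, 2 and 3. Many of these genes serve general functions beside JAK/STAT signalling.

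The other members of the SOCS family were both detected and named after their values were seen. *Socs44A* was at 44.0, 58.8 and 54.7 TPM in libraries 1, 2 and 3 (52.5 ± 7.66 TPM, SD, n = 3). *Socs16D* was at 14.5, 8.40 and 14.2 TPM (12.4 ± 3.43 TPM, SD, n = 3). *Socs44A* was thus above *Socs36E* in each library, without overlap of their values. *Socs36E* had the lowest mean of the 3.

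Of 18 genes known as targets of the pathway in other fly tissues, 5 were detected, against 40.5% of all listed genes. Of the 13 others, 9 had no count in any library. Such genes are common, since all listed genes at 0 TPM in every library share rank 10449 of 17768. The detected genes were *Tep4* at 216 ± 71.9 TPM, *Tep2* at 216 ± 31.0 TPM, *vir-1* at 76.5 ± 50.5 TPM, *zfh1* at 49.15 ± 29.7 TPM and *Mmp1* at 22.7 ± 12.6 TPM (SD, n = 3). *Tep2* and *Tep4* encode secreted thioester proteins of immunity, *vir-1* is a gene induced by viruses, *zfh1* encodes a transcription factor and *Mmp1* a matrix metalloproteinase. None of the 8 Turandot genes, which encode stress peptides made chiefly by the fat body, was detected.

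Within the Turandot family 5 genes had no count. *TotM* had 2, 1 and 1 counts in libraries 1, 2 and 3. *TotA* had 5 counts in library 3 and none in the others, and *TotC* had 0, 1 and 4 counts. *vir-1* was also highest in library 3, at 134.8 TPM, against 48.7 and 46.0 TPM in libraries 1 and 2. *Obp99b* was likewise highest there, at 299 TPM. So was the fat body marker *FASN1*, at 10.6 TPM against 6.27 and 6.03 TPM in libraries 1 and 2. The fat body markers *Yp1*, *Yp2* and *Yp3*, with at most 17 counts in a library, were also highest in library 3. Of the same list, *apolpp* had 3, 3 and 1 counts and *Fbp2* had 0, 2 and 0 counts in libraries 1, 2 and 3. Being highest in library 3 was not particular to these genes. *Stat92E*, *dome*, *hop*, *Socs36E* and *Ptp61F* were highest there too, while *et*, *upd3*, *Tep2*, *Tep4*, *zfh1* and *Mmp1* were highest in library 1. The median log2 ratio of library 3 over library 1 was 0.18 for all detected genes. The share of all genes highest in library 3 was not counted. The part of other cells in these values was not tested. *Listericin*, *Diedel* and *Tep1*, further immune genes, and *slbo*, a gene of border cells in the ovary, had no count in any library. *chinmo* passed 1 TPM in libraries 1 and 3 but not in library 2, at 2.73, 0.85 and 2.23 TPM in libraries 1, 2 and 3.

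**Figure D4:**
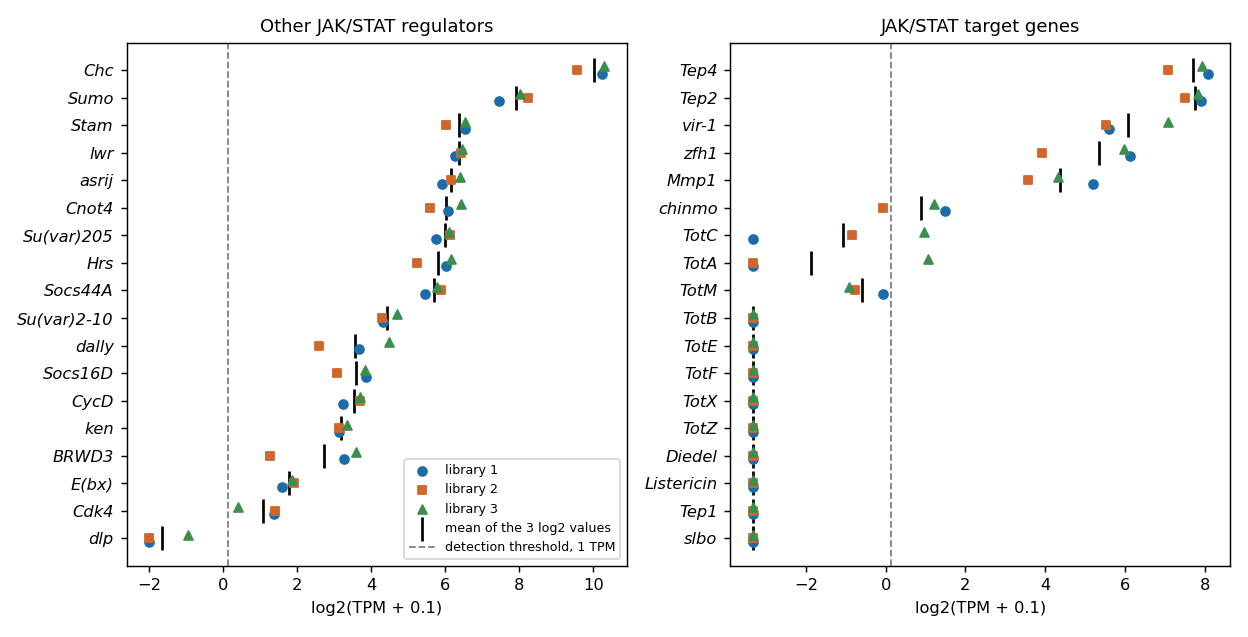
Levels as log2(TPM + 0.1) of 18 further regulators (left) and 18 known target genes (right) of the JAK/STAT pathway, with 1 symbol per library, a bar at the mean of the log2 values and a dashed line at 1 TPM. On the left 17 genes lie beyond the line in every library, and on the right 5 do, while 9 sit at 0 TPM.

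The detected pathway genes differed in how much they varied. *et* and *Stat92E* varied least between libraries, with a coefficient of variation of 9.89% and 12.7%, and *Ptp61F* followed at 21.3%. The median over all detected genes was 19.3%. *upd3* was at 33.4%, *hop* at 35.4%, *Socs36E* at 53.3% and *dome* at 58.9%. Read counting as such would give 1.52% for *Stat92E*, 4.49% for *dome*, 7.05% for *Socs36E* and 8.39% for *upd3*, which leaves out the sampling of molecules before amplification. The order rested on library 2. Without it the coefficient was 1.68% for *Stat92E*, 6.57% for *Socs36E*, 8.47% for *et*, 10.6% for *Ptp61F*, 10.98% for *upd3*, 13.3% for *dome* and 17.2% for *hop*. With TMM scaling of all 3 libraries it was 7.53% for *Stat92E*, 12.2% for *et* and 12.5% for *Ptp61F*, so *et* was then above *Stat92E*.

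All 7 detected genes were lowest in library 2, where 48.3% of all detected genes were lowest. To describe this, library 2 was set against libraries 1 and 3, with their log2 values averaged, as a log2 ratio per gene. Long transcripts had lower ratios, with a Spearman's rho of -0.559 against length across 7193 detected genes, which are not independent replicates. The pathway genes are long, with a median length of 3459 bases, against 1820.1 bases for all detected genes. Their median log2 ratio was -0.90, against -0.13 for all detected genes. After the trend on length was removed from all genes by lowess, the median of the 7 genes was -0.18, against 0.0044 for all.

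The adjustment separated the 7 genes. *hop*, at -0.90 before it, was at -0.018 after it, *et* was at -0.19 before and 0.023 after, and *Stat92E* at -0.33 and 0.33. *dome* was at -1.96 before and -1.10 after, *Socs36E* at -1.72 and -1.16, and *upd3* at -0.90 and -0.73. Of all detected genes, 2.99% lay below *dome* after the adjustment, 2.57% below *Socs36E* and 6.99% below *upd3*. The 5 detected targets had a median of -0.93 before and -0.77 after. After the adjustment *zfh1* was at -1.20, *vir-1* at -0.88, *Mmp1* at -0.77, *Tep4* at -0.097 and *Tep2* at 0.44.

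**Figure D5:**
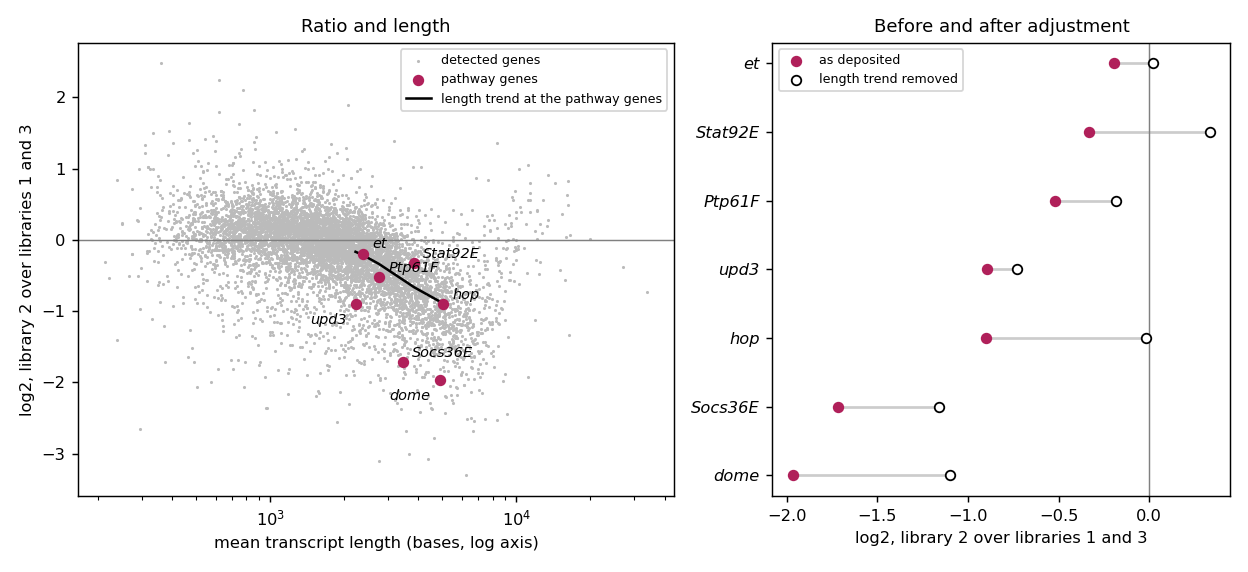
Left, library 2 over libraries 1 and 3 averaged (log2 ratio) against mean transcript length on a log axis, with detected genes in grey, the 7 detected JAK/STAT genes in colour and the length trend read at these genes as a line. Right, the ratio of each of the 7 genes before (filled) and after (open) the trend was removed, where *dome* and *Socs36E* stay below -1 and *Stat92E* lies above 0.

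Genes of the muscle and heart contractile list were also low in library 2, with a median log2 ratio of -1.20 before and -1.21 after the adjustment. Of the 13 detected, 12 were lowest in library 2. The 3 detected hemocyte markers had a median of -0.66 before and -0.74 after, with *srp* at -1.47 and -0.74 and *crq* at -0.15 and 0.17. Nephrocyte markers had medians of -0.21 and -0.020, and 5 of the 9 were lowest in library 2. They ranged from -1.59 for *tin* to 0.39 for *Cubn* before the adjustment. After it they ranged from -1.57 for *tin* to 1.24 for *Cubn*, so *tin* lay below *dome*, *Socs36E* and *upd3*. Between libraries 3 and 1, where the muscle median was 0.70, *dome* was at 0.27, *Socs36E* at 0.13 and *upd3* at -0.22, against 0.18 for all detected genes. The part of other cells in the levels of *dome*, *Socs36E* and *upd3* was not tested.

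The genes whose levels in the 3 libraries were most like those of *Stat92E* were *Vta1*, *ND-49* and *Tbc1d8-9*. Their root mean square distance from *Stat92E* in log2(TPM + 0.1) was 0.062, 0.065 and 0.066 over the 3 libraries. *Vta1*, for example, was at 160.6, 136.3 and 165.6 TPM in libraries 1, 2 and 3. With 3 libraries and 7193 detected genes such closeness describes the levels only.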

How the data were processed

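Per the labels and the Methods, the authors used STAR 2.7.5c as aligner, then RSEM 1.3.3 for quantification, with a FlyBase annotation of BDGP Release 6. The authors deposited expected counts, RSEM's estimate of reads per gene, without normalization. The deposited TPM values, also made by RSEM, are scaled to the same total in each library, and the deposited FPKM values served only as an alternative unit. Neither a strand setting nor a filter is stated in the sources used here.

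The pathway genes and gene lists were chosen with earlier results of these data known. Symbols were matched for 17671 IDs through a gene name table and for 56 through transcript IDs, leaving 41 unmatched. Of the listed names, 3 were found under another symbol. Positions are from BDGP6.54 (Ensembl release 115). Levels are means and SD of TPM over 3 libraries, each from its own 200 dissected flies, and since it is not said whether these were separate cohorts or days, the spread may be partly technical. Ratios were log2(TPM + 0.1) within a library, tested two-sided over all sign flips of the 3 values (an exact permutation test), and p-values were adjusted after Benjamini and Hochberg among 13 pairs. The pair *upd2* and *upd1* was left out because *upd1* had no counts. The 6 pairs with genes of other pathways were added after the data were seen. The length trend was a lowess fit (fraction 0.3) on log2 length over detected genes. Intervals are exact 95% Poisson intervals.

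Named genes are the 9 members, the highest 3 of each list, the neighbours of *dome* and *Stat92E* in their lists, *Hand*, *Klf15*, *sns*, the highest marker of each other cell type, and the 3 detected genes nearest to *Stat92E*. Others, among them the neighbours of *et*, were named after their values were seen. Alternatives were other thresholds, CPM, FPKM, pseudocounts, medians, TPM without mitochondrial genome and ribosomal RNA genes, TMM (edgeR 4.0.16) and DESeq2 1.42.0 scaling of expected counts rounded to whole numbers, and each replicate left out. Procedures were tested on simulated data with a straight-line effect of length and a small spread between libraries. This checks the code and does not show how well the length adjustment works in the real libraries. A planned look at protein and promoter sequences was not run. Python 3.11.15, scipy 1.17.1, statsmodels 0.14.6 and R 4.3.3 were used.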

Additional observations from a re-analysis of the deposited data

How the results depend on the processing

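The number of detected pathway genes was 5 or 7 of 9 in 9 of 10 alternatives and was 3 at a threshold of 10 TPM, where *Stat92E*, *et* and *Ptp61F* remained. The 13 ratios kept their direction in 77 of 78 alternatives. The exception was *hop* over *dome*, whose log2 ratio lay between -0.32 and 0.23 when each replicate was left out. The median log2 ratio of library 2 was -0.18 and -0.15 with the length trend removed at lowess fractions of 0.3 and 0.6. At these fractions the ratio turned positive for *Stat92E* (0.33 and 0.32) and for *et* (0.023 and 0.054). Levels moved by more than 1 SD in 2 of 45 alternatives, *Stat92E* to 187 TPM and *et* to 57.2 TPM, both in TPM without mitochondrial genome and ribosomal RNA genes, where fewer genes share the same total. In CPM, which is not per length, 7 of 9 ranks moved, to 325 for *Stat92E*, 1719 for *et*, 2069 for *Ptp61F*, 2489 for *dome*, 2585 for *hop*, 4196 for *Socs36E* and 7876 for *upd2*. Depth limits *upd1* and *upd2*. No paired analysis was possible because the series has 1 group.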
